A study of Mus musculus with 9 samples.

Results

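The genes described here are 48 members of the Wnt pathway, out of 54838 gene identifiers measured by RNA-seq in a mouse pancreatic cancer line. They are 12 ligands, 1 secretion factor, 12 receptors, 7 secreted antagonists, 6 genes of the R-spondin branch, 4 feedback inhibitors, 2 scaffolds of the destruction complex and 4 DNA-binding factors. The members were chosen by name, and the family was taken up because Wnt7b and Dkk2 are among the genes most raised in a Zdhhc20 knockout clone. The values that led to the choice are therefore the differences of Wnt7b and Dkk2 between that clone and the other cells. For both genes these differences are given as a description, with no test.

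The line, PDA530 Met (spelled PDA50 Met once in the labels), was grown from a liver metastasis in a male KPC mouse, a genetic model of pancreatic ductal adenocarcinoma. Its strain background is mixed 129/SvJae/C57Bl/6, and all cells were harvested untreated during normal growth. The knockout group was clone E4, made with CRISPR/Cas9 against Zdhhc20, which encodes an enzyme that attaches palmitate to proteins. The control group was clone C5, nucleofected with the same guide RNAs but not edited, and the parental group was the uncloned line. Each group had 3 libraries. The knockout and the control were 1 clone each, so p-values do not measure the spread between clones. They measure the spread between replicate libraries, pooled over the 3 groups. The labels call the replicates biological without saying which step was repeated.

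Wnt ligands are secreted lipid-modified proteins. Porcn adds the lipid, Wls carries the ligand to the cell surface, and the ligand joins a Frizzled receptor to the coreceptor Lrp5 or Lrp6. In the canonical branch this stops the destruction complex of Axin, Apc and kinases from marking beta-catenin for degradation, and beta-catenin then acts with Tcf and Lef factors at target genes. Some of these targets, such as Axin2, Rnf43 and Znrf3, feed back on the pathway. Rnf43 and Znrf3 remove Frizzled receptors from the surface, and R-spondins, bound by Lgr receptors, block that removal. The Ror receptors, Ryk and Ptk7 are known mainly for branches that do not pass through beta-catenin. In pancreatic ductal adenocarcinoma, tumours with inactive RNF43 are known to depend on Wnt secretion.

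Libraries held 16525869 to 23192701 counts. Zdhhc20 was at 33.9 to 42.5 CPM (counts scaled to library size with TMM factors) in the knockout samples, 85.8 to 123 in the control samples and 75.3 to 90.7 in the parental samples, so it was lower but not absent in the clone labelled knockout. The keratins Krt8, Krt18 and Krt19 and the cadherin Cdh1 were abundant in every group, while Epcam, another epithelial marker, did not exceed 0.635 CPM in any library. The summed level of 8 ductal epithelial markers was 4410 to 4546 CPM in the knockout clone, 7285 to 9749 in the control clone and 6822 to 8301 in the parental line. Fibroblast markers summed to at most 4 CPM and leukocyte markers to at most 2.75 CPM in any library, with Col1a2, Col3a1, Dcn, Lum and Cd3e at 0 counts throughout. The control samples varied more than the others, with a median SD of log2 CPM of 0.203, against 0.0753 for the knockout and 0.0839 for the parental line.

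Only part of the pathway was measurable in this line. Of the 48 members, 24 passed the filter on low counts and entered the test, among 13153 tested genes. The tested members were 4 of 12 ligands, the secretion factor, 10 of 12 receptors, 1 of 7 secreted antagonists, 3 of 6 R-spondin branch genes, 1 of 4 feedback inhibitors, both scaffolds and 2 of 4 DNA-binding factors. Wnt6, Sfrp1, Rspo1, Nkd1 and Lef1 held 0 counts in all 9 libraries. Another 14 members held between 1 and 10 counts over all libraries together, among them Notum, Dkk1 and Wif1 with 1 count each. None of the 24 untested members exceeded 1.12 CPM in any library.

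The first comparison sets the edited clone against the unedited one. Apart from Wnt7b and Dkk2, 22 tested members remained, and 12 of them were called at an adjusted p under 0.05, 5 higher and 7 lower in the knockout clone. Of all tested genes 42.9% were called in this comparison, 18.7% higher and 24.2% lower. A called change of at least 1 on the log2 scale was found for 6 of the 22, beside 14% of all tested genes. The second sets it against the uncloned line, and here 13 of the 22 were called, 5 higher and 8 lower, beside 31.4% of all tested genes (13.1% higher and 18.3% lower). The 5 higher were 1 without parental replicate 3, and 3 without parental replicate 2 or knockout replicate 1. Of the 22, 6 had a called change of at least 1 on the log2 scale, beside 10.6% of all tested genes. Both comparisons use the same knockout samples, so they are set side by side and not counted as independent. Neither list of members moved in 1 direction. The median log2 fold change of the 22 was 0.01 against the control clone and -0.15 against the parental line, beside -0.02 and -0.01 over all tested genes. The value of -0.15 was -0.31 without knockout replicate 2 and -0.56 with no filter, where scarce genes enter. The plot of levels by library shows the range over which these genes were expressed, and the plot of fitted differences shows the mixed directions.

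**Figure D1:**
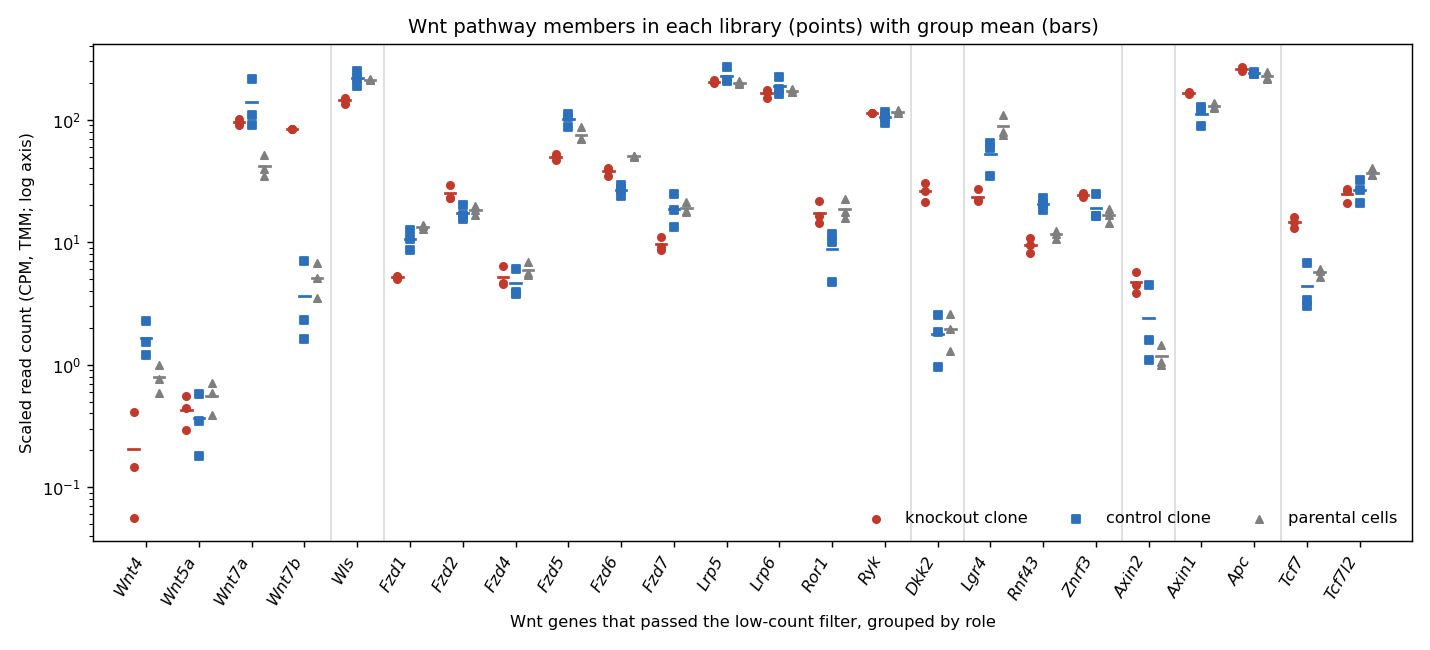
TMM-scaled CPM on a log axis for the 24 Wnt members that passed the filter, in 3 knockout (circles), 3 control (squares) and 3 parental (triangles) libraries, with short bars at the group means. Wnt7b and Dkk2 stand apart in the knockout samples, at 84.2 to 84.6 and 21.2 to 30.5 CPM, while Lrp5, Lrp6, Ryk and Apc lie close together in all groups.

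**Figure D2:**
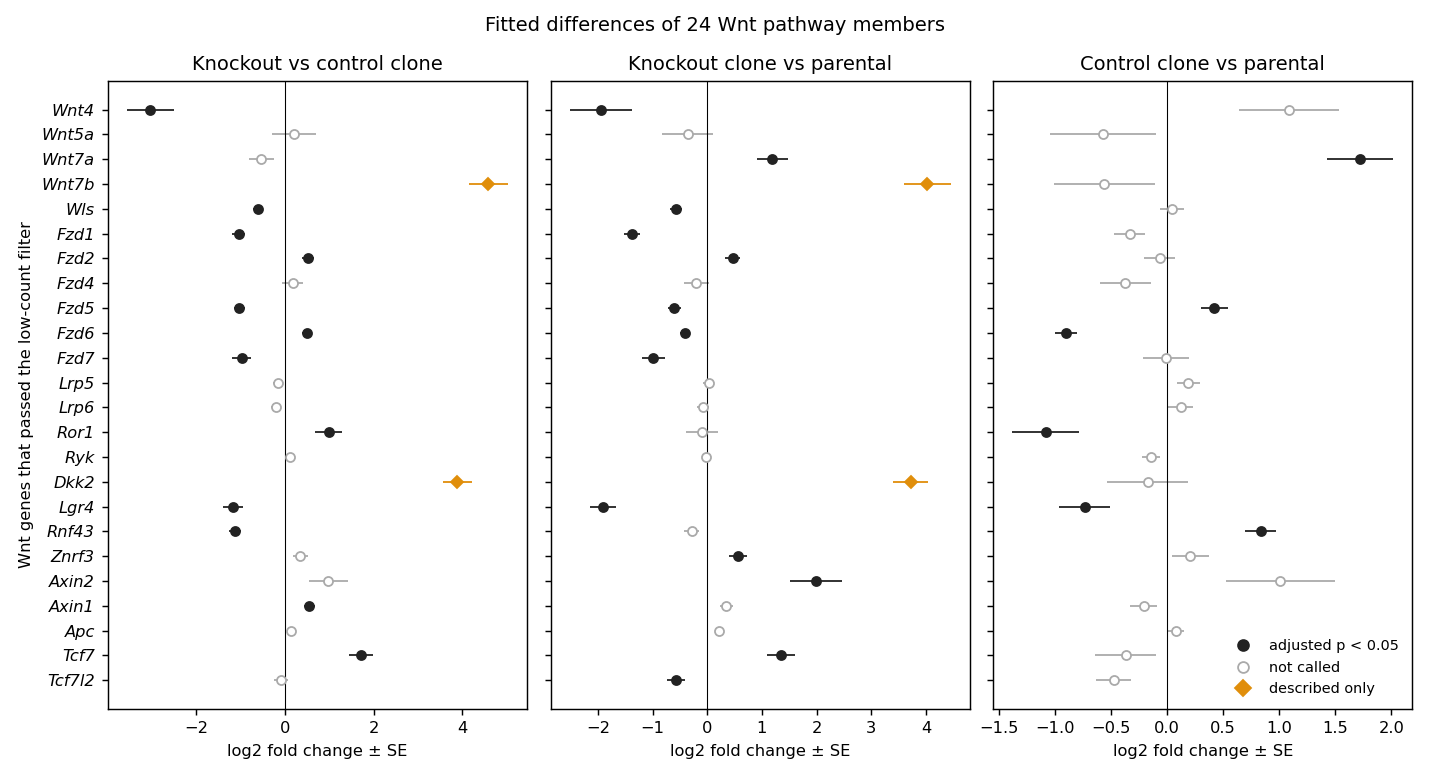
Fitted log2 fold changes with SE for the same 24 genes in each comparison; filled circles had an adjusted p under 0.05, open circles did not, and orange diamonds are Wnt7b and Dkk2, described without a test in the 2 knockout comparisons. Each panel has its own x axis. Apart from the diamonds, 5 genes are called higher and 7 lower against the control clone, and 5 higher and 8 lower against the parental line.

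Among the ligands, the knockout clone expressed Wnt7a and Wnt7b together, whereas the other cells expressed mostly Wnt7a. Wnt7b (ENSMUSG00000022382, chr15:85535437-85582473 in GRCm38) was at 84.4, 84.2 and 84.6 CPM in the knockout samples. It was at 1.61, 6.96 and 2.31 CPM in the control samples and at 6.74, 5.13 and 3.53 CPM in the parental samples. All knockout samples lay above all others, and control replicate 2 lay above the other control samples. The fitted log2 difference was 4.58 (SE 0.44) against the control clone and 4.03 (SE 0.42) against the parental line, and without control replicate 2 the first was 5.44. In bulk RNA, more cells with the transcript and more transcript per cell cannot be told apart. The 523 tested genes of chromosome 15 had a median log2 fold change of -0.02 against the control clone and 0.09 against the parental line. The antisense gene AU022754 shares 324 exon bases with Wnt7b and held 18, 13 and 15 counts in the knockout samples and 0 to 2 in each of the others. Since no source used here states the strand setting, reads of the pair cannot be told apart, although AU022754 held few counts beside Wnt7b.

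Wnt7a, the closest relative of Wnt7b, was high in both clones. Wnt7a (chr6:91363981-91411363) was at 90.5, 101 and 95 CPM in the knockout samples, 90.1, 216 and 109 CPM in the control samples, and 51.3, 39.5 and 34.5 CPM in the parental samples. Every library of either clone lay above every parental library, while knockout and control samples overlapped. Wnt7a rose by 1.19 on the log2 scale in the knockout clone against the parental line (SE 0.29, adjusted p 0.0129), a call lost without parental replicate 3 (1.07, adjusted p 0.055). Between the clones it was not called (-0.53, SE 0.28, adjusted p 0.159), and without control replicate 2 the difference was -0.06. The longest exact stretch shared by transcripts of Wnt7a and Wnt7b was 23 bases. Over all pairs of tested members of 1 family the longest was 47 bases, for Fzd1 with Fzd2 and Fzd1 with Fzd7.

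Per length of exon, the summed ligand level was lower in the parental line than in either clone, whose libraries overlapped, and its make-up differed between the clones. The 12 ligands summed to 47.5 ± 1.66 CPM per kb (SD, n = 3) in the knockout clone, 44.9 ± 21.8 in the control clone and 14.7 ± 2.99 in the parental line. The level of Wnt7b was 17.2 ± 0.0391 CPM per kb in the knockout clone beside 30.1 ± 1.70 for Wnt7a. Wnt7b made up 36.3 ± 1.32% of the summed ligand level in the knockout clone, 1.5 ± 0.479% in the control clone and 7.03 ± 0.932% in the parental line (SD, n = 3). Wnt7a made up 63.4 ± 1.35%, 97.1 ± 0.345% and 89.6 ± 0.745% in the same order. These shares rest on Wnt7b, whose level led to the choice of the family, and are a description.

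**Figure D3:**
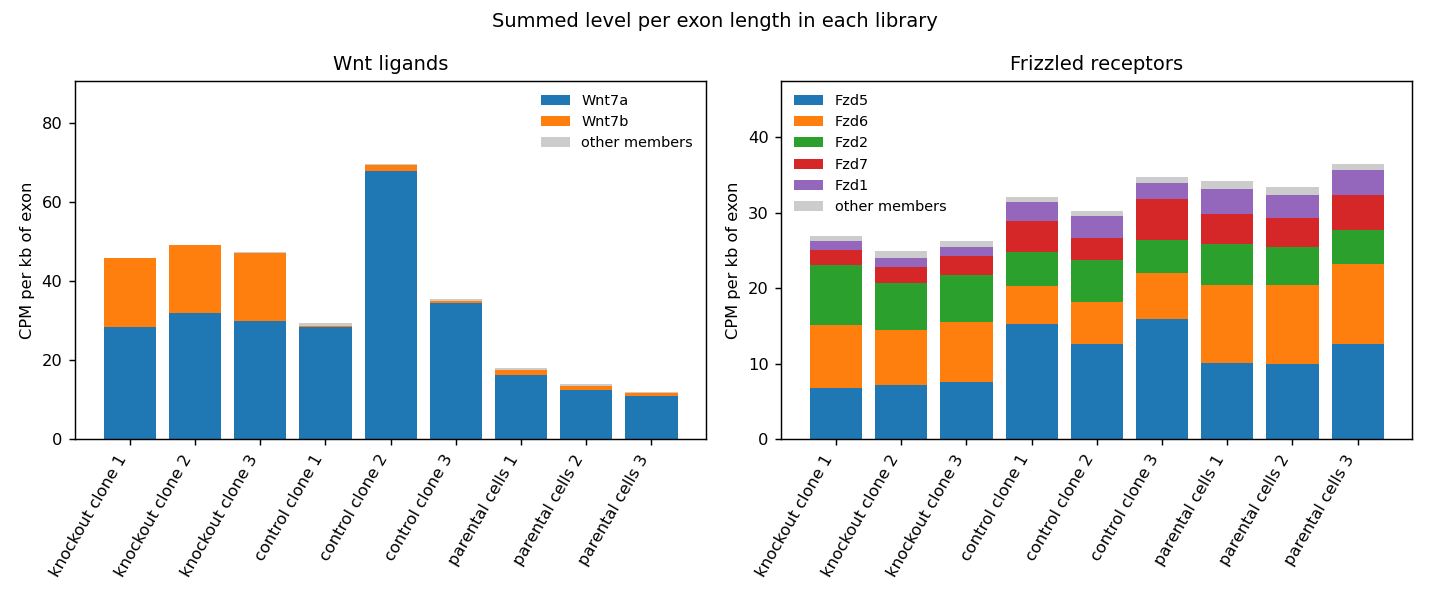
Stacked bars of CPM per kb of exon in each library for the Wnt ligands (left) and the Frizzled receptors (right). Wnt7b forms 34.9 to 37.5% of the ligand bar in the knockout samples, and Fzd5 forms 41.6 to 47.8% of the Frizzled bar in the control samples against 25.2 to 29.1% in the knockout samples.

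The remaining ligands were scarce. Wnt4, known for roles in the kidney and reproductive tract, was at 0.146, 0.0556 and 0.409 CPM in the knockout samples, 2.27, 1.19 and 1.52 CPM in the control samples and 0.771, 0.589 and 1 CPM in the parental samples. The knockout samples lay below all others. Wnt4 fell by 3.03 on the log2 scale against the control clone (SE 0.54, adjusted p 0.00173), or by 3.93 without knockout replicate 3. Its call against the parental line (-1.94, SE 0.57, adjusted p 0.0287) was lost without parental replicate 1 (adjusted p 0.067), parental replicate 3 (0.1), knockout replicate 1 (0.109) or knockout replicate 2 (0.0891), and the difference was -2.85 without knockout replicate 3. Wnt5a, the usual ligand of the Ror receptors, was at 0.178 to 0.706 CPM over all 9 libraries and was called in no comparison. Wnt9a, Wnt5b and Wnt10a held 21, 10 and 10 counts over all libraries. Wnt2b, Wnt3, Wnt10b and Wnt11 held 4 or 5 each.

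The carrier of Wnt ligands to the surface was lower in the knockout clone. Wls (chr3:159839672-159938664) was at 134, 151 and 145 CPM in the knockout samples, 251, 220 and 187 CPM in the control samples and 212, 214 and 212 CPM in the parental samples. The knockout samples lay below all others without overlap. Wls fell by 0.61 against the control clone (SE 0.10, adjusted p 0.0014) and by 0.57 against the parental line (SE 0.10, adjusted p 0.00321).

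Among the secreted antagonists, Dkk2 was the only one that passed the filter. Dickkopf proteins bind Lrp5 and Lrp6, and Dkk2 can inhibit or, in some settings, weakly activate the pathway. Dkk2 (ENSMUSG00000028031, chr3:132085292-132180304) was at 30.5, 21.2 and 26.2 CPM in the knockout samples. It was at 0.96, 2.56 and 1.84 CPM in the control samples and at 2.6, 1.94 and 1.29 CPM in the parental samples. The knockout samples lay above all others, and control and parental samples overlapped. The fitted log2 difference was 3.89 (SE 0.33) against the control clone and 3.72 (SE 0.32) against the parental line. The 690 tested genes of chromosome 3 had medians of -0.03 and 0.02 in these comparisons. Dkk1 held 1 count, Dkk3 10, Frzb 2, Sfrp2 1 and Wif1 1 over all 9 libraries, and Sfrp1 held 0, so Dkk2 was the single secreted antagonist of the list above trace level.

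Promoter windows were available from RefSeq (GRCm38.p6, 250 bases before to 50 after a start site) for 32 of the 48 members. They are shown for the antagonist Dkk2 and the ligand Wnt7a, which were higher in the knockout clone than in the parental line, and for Axin2, a widely used readout of the canonical branch. The capitals mark CTTTG, the core that Tcf and Lef factors bind, searched on both strands (as CTTTG or CAAAG). The windows are chr3:132085042-132085341 (plus strand), chr6:91411304-91411603 (minus strand) and chr11:108920099-108920398 (plus strand).
Dkk2: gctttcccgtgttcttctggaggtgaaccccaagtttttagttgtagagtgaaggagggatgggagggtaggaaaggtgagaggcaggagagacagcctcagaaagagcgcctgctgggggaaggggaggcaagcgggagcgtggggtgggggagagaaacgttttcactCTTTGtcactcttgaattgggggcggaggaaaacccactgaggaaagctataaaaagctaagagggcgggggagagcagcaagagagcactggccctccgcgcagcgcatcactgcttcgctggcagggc
Wnt7a: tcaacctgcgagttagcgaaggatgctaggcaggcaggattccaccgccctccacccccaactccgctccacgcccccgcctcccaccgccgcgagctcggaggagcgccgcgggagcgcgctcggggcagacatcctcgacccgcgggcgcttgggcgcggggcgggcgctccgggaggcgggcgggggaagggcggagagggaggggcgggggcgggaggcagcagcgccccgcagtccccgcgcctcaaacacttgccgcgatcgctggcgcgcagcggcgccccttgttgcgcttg
Axin2: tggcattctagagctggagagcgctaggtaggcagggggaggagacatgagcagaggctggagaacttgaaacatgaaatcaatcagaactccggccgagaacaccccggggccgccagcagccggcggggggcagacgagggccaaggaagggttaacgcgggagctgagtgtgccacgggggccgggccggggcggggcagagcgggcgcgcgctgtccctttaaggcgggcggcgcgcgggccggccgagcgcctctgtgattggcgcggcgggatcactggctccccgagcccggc
The Dkk2 window holds 1 match and the other windows hold 0. The core occurs in 53.9% of all 32851 windows and in 51.2% of the 41 windows of members. The longer form CTTTGAT (or ATCAAAG), which contains that core, occurs in 3.73% of all windows and, among members, in those of Wnt5b and Wnt11. No entry for Wnt7b was matched.

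The Frizzled receptors differed in direction from each other. Against the control clone, 3 of the 10 tested receptor genes were higher and 3 lower in the knockout clone, and their median was -0.02 on the log2 scale, beside 18.7% higher and 24.2% lower among all tested genes. Against the parental line, 1 was higher and 4 lower, with a median of -0.15, beside 13.1% and 18.3% of all tested genes. That median was -0.36 without knockout replicate 2 and -0.34 without parental replicate 3. Fzd1 (chr5:4753839-4758035) was at 5.18, 5.01 and 5.31 CPM in the knockout samples, 10.7, 12.6 and 8.71 CPM in the control samples and 13.8, 12.8 and 13.5 CPM in the parental samples. The knockout samples lay below all others. Fzd1 fell by 1.04 against the control clone (SE 0.15, adjusted p 0.000485) and by 1.37 against the parental line (SE 0.15, adjusted p 0.000176).

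Fzd5, the Frizzled on which RNF43-mutant pancreatic cancer cells are known to rely, was also lower. Fzd5 (chr1:64730558-64737751) was at 47.0, 50.1 and 52.1 CPM in the knockout samples, 106, 87.0 and 110 CPM in the control samples and 70.1, 69.0 and 87.5 CPM in the parental samples. It fell by 1.02 against the control clone (SE 0.12, adjusted p 0.000195) and by 0.60 against the parental line (SE 0.12, adjusted p 0.00493). Fzd7, which is close in sequence to Fzd1 and Fzd2, was at 9.60 ± 1.22 CPM in the knockout clone, 18.8 ± 5.77 in the control clone and 19 ± 2.02 in the parental line (SD, n = 3). It fell by 0.97 (SE 0.21, adjusted p 0.00509) and by 0.98 (SE 0.21, adjusted p 0.007), with the knockout samples below all others.

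Fzd2 was the Frizzled that was higher in the knockout clone than in both other groups. It was at 25.0 ± 3.56 CPM there, 17.4 ± 2.30 in the control clone and 18.2 ± 1.56 in the parental line (SD, n = 3). The log2 fold change was 0.53 against the control clone (SE 0.14, adjusted p 0.0119). The call against the parental line (0.46, SE 0.14, adjusted p 0.0286) was lost without parental replicate 2 (adjusted p 0.0807), parental replicate 3 (0.105) or knockout replicate 1 (0.112). Fzd6, which can restrain canonical signalling, lay between the other groups in the knockout clone. Its level there was 37.8 ± 2.92 CPM, beside 26.9 ± 2.78 in the control clone and 50.1 ± 0.503 in the parental line (SD, n = 3). It was 0.49 higher than in the control clone (SE 0.10, adjusted p 0.00301) and 0.41 lower than in the parental line (SE 0.10, adjusted p 0.0107). Fzd4, a receptor for norrin as well as Wnt, was at 3.80 to 6.89 CPM over all libraries and was called in no comparison.

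Per length of exon, the Frizzled members summed to 26.0 ± 1.01 CPM per kb in the knockout clone, 32.3 ± 2.29 in the control clone and 34.7 ± 1.60 in the parental line (SD, n = 3). Fzd5 made up 27.7 ± 2.14% of the knockout sum, 45.1 ± 3.17% of the control sum and 31.4 ± 2.85% of the parental sum. Fzd2 made up 26.2 ± 2.98%, 14.8 ± 2.96% and 14.4 ± 1.72% in the same order. Genes on the opposite strand share 1233 exon bases with Fzd5 (Gm38058) and 152 with Fzd6 (Gm26704), and each held at most 8 counts in any library. In the knockout clone Fzd6, Fzd5 and Fzd2 were at 7.84 ± 0.605, 7.19 ± 0.373 and 6.84 ± 0.972 CPM per kb, which is within their spread. Fzd8 was a trace receptor, with 41 counts in the parental samples and 53 in all 9.

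The coreceptors varied little. Lrp5 was at 194 to 268 CPM and Lrp6 at 151 to 221 CPM over all 9 libraries, and neither was called in any comparison. Ryk, a Wnt-binding receptor with an inactive kinase domain, was at 93.1 to 119 CPM and was not called either, while the 748 tested genes of chromosome 9, where it lies, had a median of -0.53 against either reference. Ror1 (chr4:100095791-100444765) was at 16.5, 21.5 and 14.4 CPM in the knockout samples, 10.0, 11.7 and 4.72 CPM in the control samples and 22.4, 17.7 and 15.8 CPM in the parental samples. The control samples lay below all others. Ror1 rose by 0.99 against the control clone (SE 0.30, adjusted p 0.0235). Leaving out knockout replicate 2 ended this call (0.82, adjusted p 0.0815). Against the parental line it was not called (-0.10, SE 0.29, adjusted p 0.831). Ror2 was found in the parental line alone, with 19, 18 and 4 counts there and 0 in all 6 clone libraries. With a floor of 3 counts put in place of 0, the parental level of Ror2 was 13.9-fold the knockout floor and 14.7-fold the control floor. These folds are not lower bounds, because they leave out the counting error of the parental total. That total gave 0.749 CPM, with a 95% Poisson interval from 0.538 to 1.02. For 0 counts the upper limits were 0.0664 (knockout) and 0.0628 (control). The spread between parental libraries is not covered by these limits either.

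The R-spondin receptors differed in direction, with Lgr4 lower and Lgr6, described with the other pathway genes, higher in the knockout clone. Of the 3 tested R-spondin branch members, 2 were called lower against the control clone, beside 24.2% of all tested genes. Against the parental line 1 was called higher and 1 lower, beside 13.1% and 18.3%. Lgr4 (chr2:109917647-110014257) was at 21.6, 26.9 and 22 CPM in the knockout samples, 59.2, 34.7 and 64.9 CPM in the control samples and 75.5, 79.9 and 109 CPM in the parental samples. The 3 groups did not overlap. Lgr4 fell by 1.17 against the control clone (SE 0.23, adjusted p 0.00316) and by 1.91 against the parental line (SE 0.23, adjusted p 0.000397). The 1041 tested genes of chromosome 2 had medians of -0.07 and -0.08. Lgr5, a relative of Lgr4 and a stem cell marker, held 17, 12 and 28 counts in the knockout, control and parental groups. These correspond to 0.306 CPM (95% Poisson interval 0.178 to 0.490), 0.204 (0.106 to 0.357) and 0.512 (0.340 to 0.739). The intervals cover counting error only, and their overlap does not show that the groups agree. Lgr5 was not tested between groups. The R-spondins Rspo1 and Rspo3 held 0 and 3 counts in all.

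The ligases that remove Frizzled receptors differed from each other. Rnf43 (chr11:87662722-87735539) was at 9.47, 8.12 and 10.9 CPM in the knockout samples, 20.4, 23.0 and 18.4 CPM in the control samples and 10.6, 12.3 and 11.8 CPM in the parental samples. The control samples lay above all others, and knockout and parental samples overlapped. Rnf43 fell by 1.12 against the control clone (SE 0.14, adjusted p 0.000235) and was not called against the parental line (-0.28, SE 0.14, adjusted p 0.147). Znrf3 (chr11:5276324-5444847) was at 25.3, 24.3 and 23.5 CPM in the knockout samples, 16.5, 24.5 and 16.5 CPM in the control samples and 18.6, 16.7 and 14.4 CPM in the parental samples. Control replicate 2 lay among the knockout samples. Znrf3 was not called against the control clone (0.35, SE 0.16, adjusted p 0.112) but was without control replicate 2 (0.57, adjusted p 0.0025). Its call against the parental line (0.56, SE 0.16, adjusted p 0.0295) was lost without parental replicate 2 (0.0775), parental replicate 3 (0.105) or any 1 knockout library (adjusted p 0.0865, 0.0682 and 0.0674 without replicates 1, 2 and 3).

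Of 8 genes commonly used as targets of beta-catenin (Axin2, Nkd1, Notum, Lgr5, Rnf43, Znrf3, Lef1 and Tcf7), 4 passed the filter. In the knockout clone 1 of them, Tcf7, was called higher and 1, Rnf43, lower against the control clone, beside 18.7% and 24.2% of all tested genes. Against the parental line, Axin2, Znrf3 and Tcf7 were called higher and none lower, beside 13.1% and 18.3% of all tested genes. Without parental replicate 3, only Tcf7 of these 3 was still called. Of 6 other tested target genes outside the 48 members, 2 were called, both lower, against the control clone (median -0.21), and 1 higher and 1 lower against the parental line (median 0.09), beside the same shares of all genes. Axin2 (chr11:108920349-108950783) was at 5.71, 4.51 and 3.85 CPM in the knockout samples, 1.09, 1.61 and 4.46 CPM in the control samples and 1.45, 1 and 1.06 CPM in the parental samples. All knockout samples lay above all parental ones, while control replicate 3 lay inside the knockout range. Axin2 rose by 1.99 against the parental line (SE 0.48, adjusted p 0.0118), which was not called once parental replicate 3 was left out (1.92, adjusted p 0.0506). Against the control clone the difference of 0.98 (SE 0.44, adjusted p 0.102) was not called. It passed the threshold with control replicate 3 left out (1.82, adjusted p 0.00106), with no filter (adjusted p 0.0455) and in limma voom (adjusted p 0.0319).

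Tcf7, which encodes Tcf1, was the member among these targets that was called in both knockout comparisons. Tcf7 (chr11:52252371-52283014) was at 15.9, 14.5 and 13.1 CPM in the knockout samples, 3.36, 3.03 and 6.82 CPM in the control samples and 5.83, 5.25 and 6.00 CPM in the parental samples. The knockout samples lay above all others, and control replicate 3 was the highest of the rest. Tcf7 rose by 1.72 against the control clone (SE 0.27, adjusted p 0.000871) and by 1.35 against the parental line (SE 0.26, adjusted p 0.00438). The 1030 tested genes of chromosome 11, which carries Axin2, Rnf43, Znrf3 and Tcf7, had a median log2 fold change of -0.05 against the control clone and 0.00 against the parental line.

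**Figure D4:**
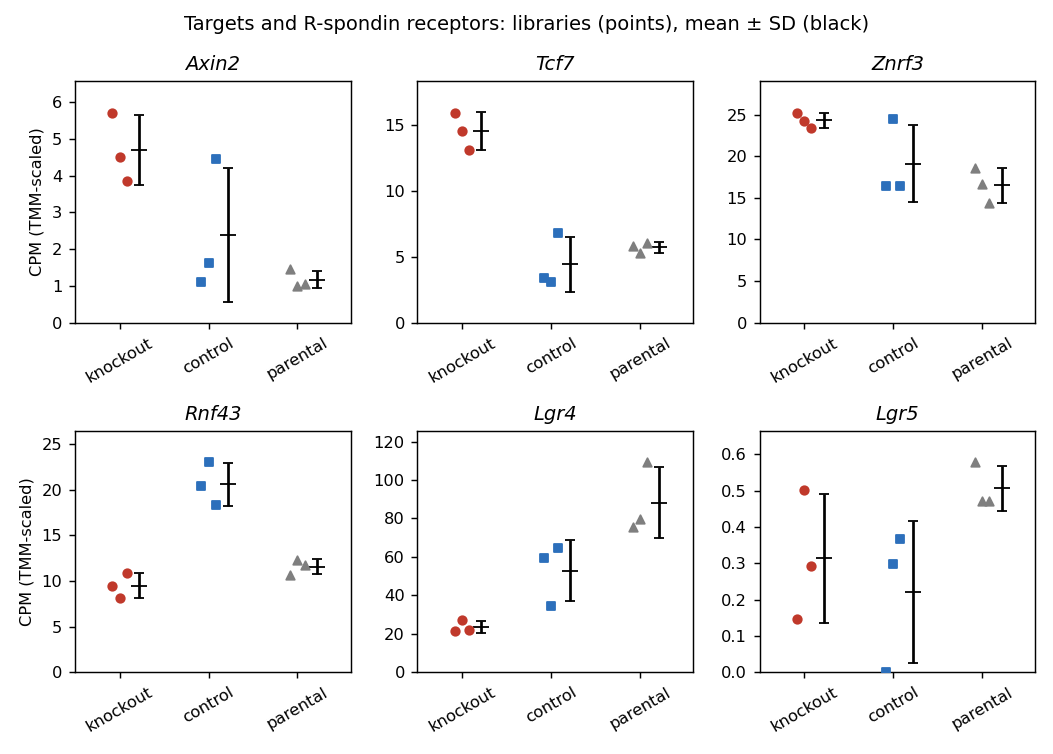
CPM of 4 beta-catenin targets and of the R-spondin receptors Lgr4 and Lgr5 in each library, with mean and SD in black; every y axis starts at 0. Tcf7 is at 13.1 to 15.9 CPM in the knockout samples and at most 6.82 elsewhere, and the control library with the highest Axin2 (4.46 CPM) is also the one with the highest Tcf7.

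The other DNA-binding factors and the scaffolds moved less. Tcf7l2, the main Tcf factor of intestinal epithelium, was at 24.8 ± 3.42 CPM in the knockout clone, 26.5 ± 5.54 in the control clone and 36.9 ± 2.66 in the parental line (SD, n = 3). It was not called between the clones. Its call against the parental line (-0.57, SE 0.16, adjusted p 0.0224) was lost without any 1 parental library (adjusted p 0.0501, 0.0554 and 0.0897 without replicates 1, 2 and 3), knockout replicate 1 (0.0572) or knockout replicate 3 (0.087). Tcf7l1, known mainly as a repressor, held 38 counts in all. Axin1, the scaffold of the destruction complex, was at 164 ± 3.61 CPM in the knockout clone, 112 ± 20.1 in the control clone and 129 ± 6.11 in the parental line (SD, n = 3). It rose by 0.56 against the control clone (SE 0.12, adjusted p 0.00485) and was not called against the parental line (adjusted p 0.0504). Apc was at 215 to 271 CPM over all libraries and was called in no comparison. Of the feedback inhibitors besides Axin2, Nkd2 and Notum held 1 count each and Nkd1 held 0.

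Earlier results of these data were known when members were chosen. The stated reason for the choice was the knockout clone, not the comparison of the unedited clone with the line it came from. The share of members called there lay near that of all genes. Of 24 tested members 6 were called, 3 higher and 3 lower in the clone, beside 21.4% of all tested genes (10.4% higher and 11% lower). Of the 24, 2 had a called change of at least 1 on the log2 scale (Wnt7a and Ror1), beside 6.47% of all tested genes. The count of 6 was 10 without control replicate 2 (3 higher and 7 lower) or control replicate 3 (2 higher and 8 lower). It was 3 without parental replicate 1 or 2. Wnt7a rose by 1.72 on the log2 scale (SE 0.29, adjusted p 0.00385), or 1.25 without control replicate 2, and Rnf43 rose by 0.83 (SE 0.14, adjusted p 0.00313). Fzd6 fell by 0.90 (SE 0.10, adjusted p 0.000439). These 3 calls held under every alternative run.

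The other calls of that comparison were less stable. Those of Ror1, Lgr4 and Fzd5 did not hold when these 2 groups were fitted alone (adjusted p 0.0722, 0.102 and 0.0872), and that of Lgr4 also with a filter of at least 5 CPM (0.0546). Ror1 was 1.08 lower in the control clone (SE 0.30, adjusted p 0.0299), a call lost without control replicate 1 (adjusted p 0.0567), parental replicate 1 (0.104) or parental replicate 2 (0.0678). Lgr4 was 0.73 lower (SE 0.23, adjusted p 0.045), which was called only without control replicate 2 or 3 among the 9 fits that left out a library, with adjusted p from 0.0616 to 0.153 in the others. Fzd5 was 0.42 higher (SE 0.12, adjusted p 0.0337), a call lost in 7 of those fits (adjusted p from 0.0527 to 0.148) and kept without control replicate 2 or parental replicate 3. Here Wnt7b and Dkk2 were not called, at -0.56 (SE 0.45, adjusted p 0.414) and -0.17 (SE 0.36, adjusted p 0.77). Without control replicate 2, Wnt7b was called lower (-1.42, adjusted p 0.0042). Tcf7 was not called (-0.37, SE 0.27, adjusted p 0.368), but was called lower without control replicate 3 (-0.83, adjusted p 0.00462).

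A list of 85 other genes of the pathway, taken by function, was examined in the same fit, and 47 of them were tested. Against the control clone, 13 were higher and 16 lower in the knockout clone, beside 18.7% and 24.2% of all tested genes. Against the parental line, 10 were higher and 11 lower, beside 13.1% and 18.3%. In the control clone, 5 were higher and 7 lower than in the line it came from, beside 10.4% and 11%, so this count lay near the background. The second count, 21 in all, was 13 without parental replicate 2, 12 without parental replicate 3 or knockout replicate 1, and 10 without knockout replicate 3, and the 10 higher were 3 to 5 in these fits and without parental replicate 1. The third, 12 in all, was 5 without parental replicate 1 and 6 without parental replicate 2. It was 17 (10 higher and 7 lower) without control replicate 2 and 16 (6 higher and 10 lower) without control replicate 3. Among the 18 tested cytoplasmic transducers, 4 were higher and 6 lower against the control clone, and 2 higher and 3 lower against the parental line, where 31.4% of all tested genes were called and the transducers lay no higher. Of 9 tested genes of planar polarity, the branch that orients cells in a sheet, 1 was higher and 4 lower in each knockout comparison, beside the shares of all genes given above. They included Prickle1, at 3.89 to 4.30 CPM in the knockout samples, 0.262 to 0.952 in the control samples and 0.177 to 0.674 in the parental samples. Vangl2 was at 0 to 0.0556, 0.595 to 1.26 and 1.94 to 3.48 CPM in the same order. Only in the knockout clone, where Prickle1 was higher, did every library reach the 10 reads of the low-count filter for this gene. No knockout library reached them for Vangl2, so both genes depended on groups where they were high to pass the filter. These examples were chosen after their values were seen. None of the 7 other Wnt ligands passed the filter.

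Porcn, the acyltransferase that attaches palmitoleate to Wnt ligands, was lower in the knockout clone. Porcn was at 12.8, 11.5 and 10.9 CPM in the knockout samples, 32.7, 22.4 and 34.0 CPM in the control samples and 17.1, 15.5 and 22.2 CPM in the parental samples. The knockout samples lay below all others. It fell by 1.34 against the control clone (SE 0.19, adjusted p 0.000462). The smaller fall against the parental line (-0.64, SE 0.19, adjusted p 0.0282) was not called without parental replicate 1 (0.0556), parental replicate 3 (0.123) or any 1 knockout library (0.0598, 0.0879 and 0.096 without replicates 1, 2 and 3). In the control clone Porcn was 0.71 above the parental line (SE 0.18, adjusted p 0.0231), a call lost without control replicate 1 (0.0721), parental replicate 1 (0.0987) or parental replicate 2 (0.103), and in the fit of only these groups (0.065).

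The surface receptors Ptk7 and Lgr6 were above the parental level in the knockout clone and below it in the control clone. Ptk7, a pseudokinase receptor of planar polarity and Wnt signalling, was at 62.8, 58.1 and 61.1 CPM in the knockout samples, 9.91, 9.46 and 12.8 CPM in the control samples and 32.1, 30.5 and 27.5 CPM in the parental samples. The 3 groups did not overlap. Ptk7 was 2.5 higher than in the control clone (SE 0.12, adjusted p 1.89e-06) and 1.01 higher than in the parental line (SE 0.12, adjusted p 0.000268). Lgr6, an R-spondin receptor, was at 37.8, 16.6 and 37.7 CPM in the knockout samples, 6.24, 6.19 and 8.08 CPM in the control samples and 18.4, 17.0 and 16.2 CPM in the parental samples. Knockout replicate 2 lay within the parental range. Lgr6 was 2.17 higher than in the control clone (SE 0.29, adjusted p 0.00036). Its call against the parental line (0.84, SE 0.27, adjusted p 0.0412) was lost without control replicate 1 (0.0579), any 1 parental library (0.0822, 0.111 and 0.127), knockout replicate 1 (0.152) or knockout replicate 3 (0.144), and in limma voom (0.0819). The membrane inhibitor Apcdd1 was at 51.5 ± 6.63 CPM in the knockout clone, 24.4 ± 11.2 in the control clone and 27.2 ± 4.29 in the parental line (SD, n = 3). It rose by 1.08 against the control clone (SE 0.27, adjusted p 0.0108). Its call against the parental line (0.92, SE 0.27, adjusted p 0.029) was lost without any 1 parental or knockout library (adjusted p from 0.0515 to 0.105).

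Of 9 tested nuclear cofactors of beta-catenin, 5 were called higher and 2 lower against the control clone (median 0.33), beside 18.7% and 24.2% of all tested genes. The parental comparison had 3 called higher and 2 lower (median 0.16), beside 13.1% and 18.3%. Ctnnb1, which encodes beta-catenin, was at 652, 668 and 690 CPM in the knockout samples, 998, 774 and 882 CPM in the control samples and 899, 947 and 896 CPM in the parental samples. It fell by 0.40 against the control clone (SE 0.09, adjusted p 0.00652) and by 0.45 against the parental line (SE 0.09, adjusted p 0.00547). Neither fall was larger than the median of -0.53 given above for chromosome 9, which carries Ctnnb1. Bcl9l, a cofactor of beta-catenin on the same chromosome, was at 21.6, 25.2 and 23.2 CPM in the knockout samples, 100.3, 73.5 and 122 CPM in the control samples and 73.4, 75.4 and 86.1 CPM in the parental samples. It fell by 2.08 (SE 0.17, adjusted p 2.9e-05) and by 1.75 (SE 0.17, adjusted p 0.000114), beyond the chromosome median. The part of gene dosage in these values was not tested.

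Ephb3, an Eph receptor known as a target of Tcf factors in intestine, was at 3.12 ± 0.430 CPM in the knockout clone, 14.2 ± 3.77 in the control clone and 5.90 ± 0.576 in the parental line (SD, n = 3). It fell by 2.19 against the control clone (SE 0.22, adjusted p 8.04e-05) and in the control clone it was 1.26 above the parental line (SE 0.21, adjusted p 0.00336). Against the parental line it fell by 0.92 (SE 0.22, adjusted p 0.0126), which was not called once knockout replicate 1 (0.0506) or 3 (0.05, just above the threshold) was left out. Chromosome 16, which carries Ephb3, had a median of -0.35 against the control clone and -0.29 against the parental line. Apc2, a relative of Apc, was at 2.10 ± 0.291 CPM in the knockout clone, 5.25 ± 0.840 in the control clone and 3.57 ± 0.147 in the parental line (SD, n = 3). It fell by 1.32 against the control clone (SE 0.19, adjusted p 0.000544). Its call against the parental line (-0.76, SE 0.19, adjusted p 0.0148) was lost without parental replicate 2 (0.0536), parental replicate 3 (0.0506), knockout replicate 1 (0.0546) or knockout replicate 3 (0.0588). Of the 8 ductal epithelial markers summed above, Krt8, Krt18, Krt19, Cdh1 and Muc1 were called lower in the knockout clone in both comparisons, Krt7 was called lower against the control clone but not against the parental line, and Sox9 was called in neither. Epcam held 10 to 13 counts in each knockout library and 2 to 5 in each of the others, and so passed the filter only through the group where it was higher. The part of these markers in the differences of the pathway genes was not tested.

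**Figure D5:**
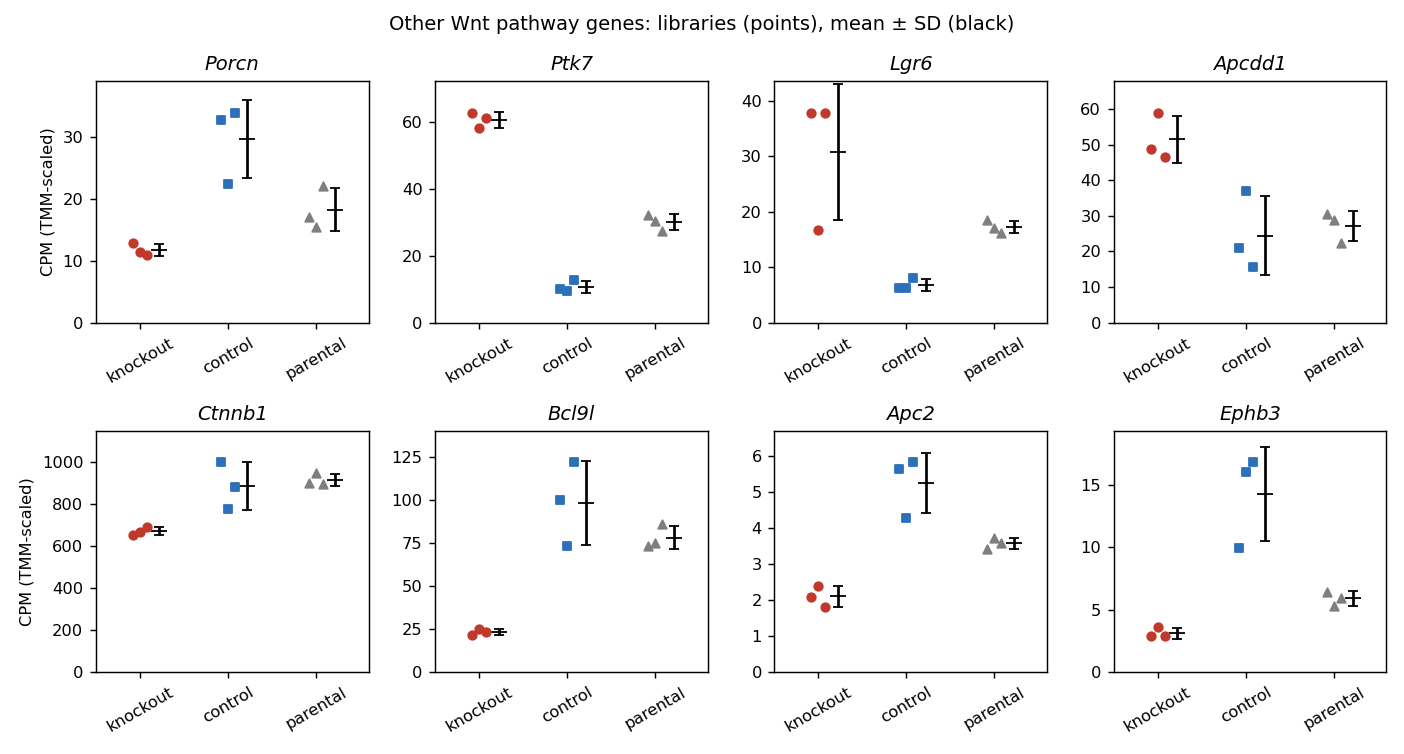
CPM of 8 other pathway genes in each library, with mean and SD in black; every y axis starts at 0. Ptk7 separates all 3 groups, at 58.1 to 62.8, 9.46 to 12.8 and 27.5 to 32.1 CPM in knockout, control and parental samples, and Lgr6 in knockout replicate 2 is at 16.6 CPM, beside the parental samples.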

How the data were processed

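RNA was measured in 9 libraries made with the KAPA mRNA HyperPrep kit, per the labels' protocols. The deposited values are RSEM estimated counts per Ensembl gene, 1 column per library, all whole numbers, so rounding changed none. STAR 2.5.2, RSEM 1.3.0, DESeq2 1.10.1 and build GRCm38 are named in the submitters' processing notes without their roles. The annotation release and strand setting are not given in the sources used here. Symbols, positions and exon lengths came from GENCODE M21 on GRCm38, which held 54809 of 54838 identifiers.

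Counts were fitted with edgeR 4.0.16 (glmQLFit and glmQLFTest, R 4.3.3) after filterByExpr (at least 10 reads in enough libraries and 15 in total) and TMM scaling, with all 9 libraries in 1 fit and group as the only term. Calls were made under 0.05 after Benjamini-Hochberg adjustment over all 13153 tested genes, the method behind every adjusted p given unless another is named. SE is the log2 fold change divided by the root of F. CPM per kb divides TMM-scaled CPM by the union exon length. The fit was checked on simulated counts. Alternatives were DESeq2 1.42.0 and its size factors, limma 3.58.1 voom, total counts, other filters, a replicate block, a fit of 2 groups and each library left out.

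Members and lists were chosen with earlier results of these data known. Values by library are given for Wnt7b, Dkk2, members with a mean of at least 5 CPM called with a log2 change of 1 or more in size, and beta-catenin targets with a mean of at least 1 CPM. They were added for Wnt4 and Wls after their values were seen. Pathway genes were named by the same size rule, plus Porcn and Ctnnb1, and Prickle1 and Vangl2 after their values were seen. Total counts per library limit precision for scarce genes.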

Additional observations from a re-analysis of the deposited data

How the results depend on the processing

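Of 1098 values of single genes recomputed under the alternatives, 1018 were counted as the same, 69 lost a call, 6 gained one and 5 changed sign. The same means that direction and side of the threshold were kept. For Wnt7b and Dkk2 in the knockout comparisons, which have no test, it means a move smaller than the spread between replicates. The sign changes were all of differences that were not called. With 1 library left out, the difference of Dkk2 between the control clone and its line ranged from -0.53 to 0.15 and was above 0 without control replicate 1 (0.15) or parental replicate 1 (0.095). That of Znrf3 in the same comparison ranged from -0.011, without control replicate 2, to 0.31. That of Ror1 between the knockout clone and the parental line ranged from -0.27 to 0.061 and was above 0 without parental replicate 1 (0.061) or knockout replicate 3 (0.028). No sign changed with the scaling, and the other scalings moved the median of all genes by at most 0.05 in size (-0.05, total counts, control clone against parental line).

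Leaving out 1 library moved the count of members called from 12 to between 11 and 15 against the control clone and from 13 to between 9 and 17 against the parental line. The count of 6 for the control clone against the parental line moved to between 3 and 10, and was 3 in the fit of only those groups. For the other pathway genes, the counts of 29, 21 and 12 moved to between 25 and 35, 10 and 26, and 5 and 17. Asking also for a log2 change of 1 or more in size left 6, 6 and 2 members and 11, 7 and 5 other pathway genes in the same order. The receptor median against the parental line moved from -0.15 to between -0.36 and -0.058 with 1 library left out. The median of the 22 other members in that comparison moved from -0.15 to between -0.31 and -0.058, and was -0.56 with no filter. In the control clone against its line it was -0.38 with no filter, where scarce genes enter the median. With the replicate block, the counts of members called were 12, 14 and 6, and those of other pathway genes 27, 19 and 10. Of 9 pairs of same-numbered libraries, 3 had a correlation of deviations over 0.1, and the range was -0.22 to 0.34, so the numbers were not taken to pair the samples. The filter on low counts left 24 of the 48 members untested.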
